A study of Mus musculus with 5 samples.

Results

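The 9 genes described here encode transcription factors of the primitive streak and of the mesendoderm that leaves it: the T-box factors T, Eomes and Tbx6, the homeodomain factors Mixl1, Evx1, Cdx1 and Nkx1-2, and the zinc finger factors Sp5 and Sp8. They were chosen by name, and each of the 9 was found on a single row of the deposited table of 49671 genes. RNA was sequenced from single mouse embryos at about E6.75, when a streak is forming. The 3 SO- embryos carried a single Sox2Cre transgene (Sox2Cre+/-), a floxed Oct4 allele and a null one (Oct4 fl/-), and the 2 SO+ embryos had no Cre (Sox2Cre-/-) and a floxed beside an intact allele (Oct4 fl/+). All 5 embryos shared a floxed Oct4 allele and a mixed strain background. Each sample held the epiblast with its visceral endoderm (VE), and Sox2Cre recombines mainly in the epiblast, so the VE was not the tissue targeted. No stage is given for single embryos.

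The primitive streak is the posterior site where epiblast cells leave the epithelium to become mesoderm and definitive endoderm. Nodal, WNT and FGF signals switch on its transcription factors, of which T (brachyury) and Eomes are needed for mesoderm to form and migrate. Mixl1 is a paired-type homeodomain factor induced by Nodal in the streak, and Evx1 marks its posterior end. Sp5 and Sp8 are direct effectors of WNT signalling that act with T. Cdx1, Nkx1-2 and Tbx6 appear later, in the caudal epiblast and in the precursors of paraxial mesoderm.

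Promoter sequences of 7 of the 9 members were at hand from RefSeq on GRCm38.p6. No promoter is shown for Mixl1 or Cdx1. Sequences are shown for 3 of them, the 250 bases before the start of T and Sp5, as textbook targets of WNT signalling whose RNA levels followed different courses across these embryos, and of Evx1, which held the octamer letters that POU factors such as Oct4 bind. Capitals mark the TCF/LEF letters CTTTGA or their complement TCAAAG in T and Sp5, and the octamer ATTTGCAT in Evx1. T lies on the plus strand with its window at chr17:8434173-8434422, Sp5 on the plus strand at chr2:70474673-70474922 and Evx1 on the plus strand at chr6:52313248-52313497.
T: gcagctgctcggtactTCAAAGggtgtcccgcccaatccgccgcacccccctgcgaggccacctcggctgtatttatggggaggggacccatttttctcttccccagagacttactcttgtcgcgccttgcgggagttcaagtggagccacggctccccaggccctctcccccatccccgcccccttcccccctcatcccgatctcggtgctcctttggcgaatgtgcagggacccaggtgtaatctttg
Sp5: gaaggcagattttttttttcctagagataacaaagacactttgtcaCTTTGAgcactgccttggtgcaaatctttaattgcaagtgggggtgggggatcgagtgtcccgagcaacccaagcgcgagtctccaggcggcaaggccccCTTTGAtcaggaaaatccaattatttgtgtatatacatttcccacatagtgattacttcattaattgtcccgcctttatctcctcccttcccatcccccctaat
Evx1: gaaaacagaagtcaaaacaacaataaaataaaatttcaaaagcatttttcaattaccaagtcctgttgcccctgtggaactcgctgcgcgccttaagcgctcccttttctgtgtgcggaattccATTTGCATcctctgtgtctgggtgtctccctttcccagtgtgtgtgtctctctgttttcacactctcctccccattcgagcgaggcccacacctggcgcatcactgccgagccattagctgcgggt
The TCF/LEF letters began 234 bases before the start of T, and 204 and 104 bases before that of Sp5. The octamer began 126 bases before the start of Evx1. Searched on both strands, CTTTGA was held by 13.8% of all 32851 promoters of the same length, ATTTGCAT by 1.60%, and the T-box letters TCACACCT by 368 of them. A single one of the 3 listed starts of Sp8 also held CTTTGA, 50 bases before it, and the windows of the other members at hand held none of the 3 motifs. These matches are letters, and binding was not measured here.

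Total counts ran from 1117566 in SO- embryo 2 to 27538119 in SO+ embryo 1, and the SO+ libraries were 8.67 times larger on average. Levels are given as counts per 1000000 counts of the library (CPM). At a floor of 3 counts the lowest visible level was 0.109 and 0.111 CPM in the SO+ pair but 0.726, 2.68 and 0.716 CPM in SO- embryos 1, 2 and 3, which covers counting error only. The second sequencing index was the same within a genotype and different between genotypes, so index, depth and genotype cannot be told apart. Pou5f1, the gene of Oct4, had 920 and 435 CPM in SO+ embryos 1 and 2 and 27.8, 12.5 and 43.7 CPM in the SO- embryos, lower in every SO- embryo (adjusted p = 3.94e-05 from edgeR). In bulk samples, fewer cells of a type and less RNA per cell cannot be told apart.

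Of the 9 members, 6 had enough counts to be compared between genotypes (T, Eomes, Mixl1, Evx1, Sp5 and Sp8), and none of the 6 passed the test. The comparison was made with edgeR's quasi-likelihood test over 12067 genes, with Benjamini-Hochberg adjustment and a threshold of 0.05. It called 0 of 6 members against 2.35% of all genes tested (1.42% higher and 0.928% lower in SO- embryos), and 1 of 6 (T) had an unadjusted p under 0.05, against 13.7% of all genes. DESeq2 and limma-voom also called 0 of 6, against 3.26% and 0.754% of all genes, with 3 and 0 members at an unadjusted p under 0.05. The share of all genes at that unadjusted p was not computed for DESeq2, so nothing is read from its 3 members. Log2 fold changes, always SO- over SO+, were above 0 for 5 of the 6, against 49.7% of all genes, and below 0 for Mixl1, with a median of 0.28 beside 0.00 over all genes. The CPM ranges of SO+ and SO- embryos overlapped for all 6, whereas 29.5% of all tested genes had no overlap (13.9% higher and 15.6% lower in SO- embryos). With 2 embryos against 3, the smallest two-sided p of an exact permutation test is 0.1, and p-values measure only the spread between these embryos.

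**Figure D1:**
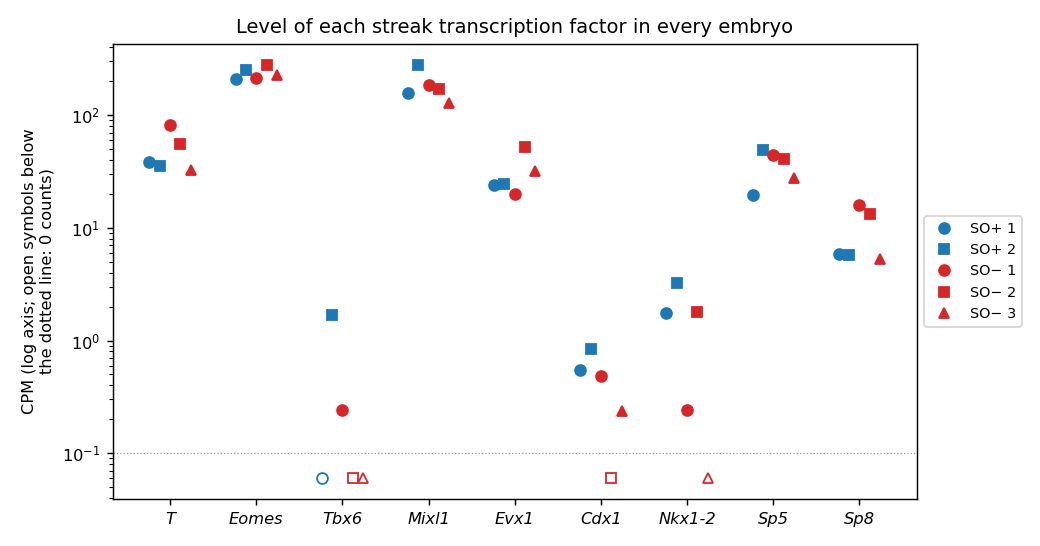
Level of the 9 members in each embryo, in CPM on a log axis, with SO+ embryos in blue and SO- embryos in red and 1 symbol per embryo; open symbols below the dotted line are libraries with 0 counts. Eomes keeps to a narrow band from 209 to 277 CPM, T and Sp8 are highest in SO- embryos 1 and 2, and Mixl1 and Sp5 are highest in SO+ embryo 2.

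Among the T-box factors, T (ENSMUSG00000062327; chromosome 17 of GRCm38, 8434423 to 8442496) had 38.7 and 35.5 CPM in SO+ embryos 1 and 2, and 82.7, 55.5 and 32.9 CPM in SO- embryos 1, 2 and 3. SO- embryos 1 and 2 lay above both SO+ embryos and SO- embryo 3 lay below both. The mean was 37.1 ± 2.25 CPM (SD, n = 2) in SO+ and 57.0 ± 24.9 CPM (SD, n = 3) in SO- embryos. The log2 fold change was 0.63 (standard error 0.28, 95% interval 0.02 to 1.24, adjusted p = 0.344 from edgeR). With each embryo left out in turn it ran from 0.17, without SO- embryo 1, to 0.94, without SO- embryo 3. Summed markers of the VE, which makes little T, were 3121 and 3477 CPM in SO+ against 4760, 4727 and 2981 CPM in SO- embryos 1, 2 and 3, so that the embryos high in T were also those high in VE markers. All 11 of these markers were tested and 0 passed, against 2.35% of all tested genes. An unadjusted p under 0.05 from edgeR was reached by 5 of the 11, against 13.7% of all genes. Log2 fold changes were above 0 for 9 of the 11, against 49.7% of all genes, with a median of 0.39. The part of the VE markers in the levels of T was not tested.

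Eomes, needed for epithelial-to-mesenchymal transition (EMT) and for definitive endoderm, was the steadiest member (ENSMUSG00000032446; chromosome 9, 118478212 to 118486132). It had 209 and 252 CPM in SO+ against 214, 277 and 228 CPM in SO- embryos 1, 2 and 3. SO- embryos 1 and 3 lay between the SO+ embryos and SO- embryo 2 lay just above them, and the means were 231 ± 30.6 CPM (SD, n = 2) and 240 ± 33.3 CPM (SD, n = 3). The log2 fold change was 0.05 (standard error 0.13, 95% interval -0.24 to 0.33, adjusted p = 0.938 from edgeR), with the narrowest interval of the 6. Eomes is also transcribed in extra-embryonic ectoderm (ExE) and VE. The ExE had been dissected away, and 10 of its markers summed to 19.0 and 21.7 CPM in SO+ against 35.8, 61.7 and 38.4 CPM in SO- embryos, of which Hand1 and Plet1 made up the larger part in the SO- embryos. Elf5, a defining ExE gene, had 0.109 and 0.185 CPM in SO+ against 0.484, 0 and 2.62 CPM in SO- embryos.

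Tbx6, a T-box factor of paraxial mesoderm, was present in only 1 embryo above the floor (ENSMUSG00000030699; chromosome 7, 126781483 to 126785560). It had 46 counts in SO+ embryo 2, 1.70 CPM, and 0 in SO+ embryo 1, a library of nearly the same size. SO- embryos 1, 2 and 3 had 1, 0 and 0 counts. Against an assumed floor of 3 counts in SO+ embryo 1, the ratio of SO+ embryo 2 was 15.6. From the counts themselves, the exact 95% lower limit of the ratio was 12.2 (counting error only). At the level of SO+ embryo 2, the SO- libraries would hold 7.03, 1.90 and 7.13 counts. The 3 SO- libraries together had 1 count in 9443681, or 0.106 CPM (exact 95% Poisson interval 0.00268 to 0.590, counting error only), which is below the level of SO+ embryo 2 and cannot be set apart from that of SO+ embryo 1.

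Among the homeodomain factors, Mixl1 was the most abundant per length of the 9 members and the only tested member lower on average in SO- embryos (ENSMUSG00000026497; chromosome 1, 180693043 to 180697034). It had 159 and 281 CPM in SO+ embryos 1 and 2 and 186, 171 and 129 CPM in SO- embryos 1, 2 and 3. SO+ embryo 2 stood above the other 4, while SO+ embryo 1 lay inside the SO- range. Means were 220 ± 86.6 CPM (SD, n = 2) in SO+ and 162 ± 29.3 CPM (SD, n = 3) in SO- embryos. The log2 fold change was -0.44 (standard error 0.21, 95% interval -0.90 to 0.01, adjusted p = 0.375 from edgeR). Whether Mixl1 passed depended on which SO+ embryo was used. Without SO+ embryo 1 the value was -0.81 (adjusted p = 0.00284 from edgeR), and without SO+ embryo 2 it was 0.027 (adjusted p = 0.976 from edgeR). With a lone SO+ embryo the fit assumes that it varies as the SO- embryos do.

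Evx1 had 23.9 and 24.4 CPM in SO+ against 20.1, 51.9 and 32.2 CPM in SO- embryos 1, 2 and 3 (ENSMUSG00000005503; chromosome 6, 52313498 to 52318378). The SO+ embryos were nearly equal, and the SO- embryos lay on either side of them (means 24.1 ± 0.307 CPM, SD, n = 2, and 34.7 ± 16.1 CPM, SD, n = 3). The log2 fold change was 0.43 (standard error 0.29, 95% interval -0.20 to 1.07, adjusted p = 0.594 from edgeR). The highest value came from the smallest library, at 58 counts. An antisense gene, Evx1os, overlaps 73 bases of the exons of Evx1 and had 245, 360, 106, 30 and 40 counts in SO+ embryos 1 and 2 and SO- embryos 1, 2 and 3. Since the use of strand in counting is not given in the sources used here, reads in the shared bases cannot be assigned. The same limit holds for Eomes, which shares 118 exon bases with antisense Gm33460, and for Nkx1-2, which shares 541 with antisense Gm16764. Gm33460 had 3 and 5 counts in SO+ embryos 1 and 2 and 0, 0 and 2 in the SO- embryos. Gm16764 had 0 counts in every embryo.

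Cdx1, a caudal-type factor of the posterior body, and Nkx1-2, an NK-type factor of the caudal epiblast, were near the floor. Cdx1 (ENSMUSG00000024619; chromosome 18, 61018862 to 61036199) had 15 and 23 counts in the SO+ embryos, 0.545 and 0.850 CPM, and 2, 0 and 1 counts in the SO- embryos, 0.484, 0 and 0.239 CPM, without overlap. At the mean SO+ level the SO- libraries would hold 2.88, 0.780 and 2.92 counts, and the 3 counts of the summed SO- libraries, 0.318 CPM (exact 95% Poisson interval 0.0655 to 0.928), span the 0.696 CPM of the summed SO+ libraries, so a difference was not detectable at this depth. Nkx1-2 (ENSMUSG00000048528; chromosome 7, 132594878 to 132599637) had 48 and 87 counts in the SO+ embryos, 1.74 and 3.22 CPM, and 1, 2 and 0 counts in SO- embryos 1, 2 and 3. At the mean SO+ level those libraries would hold 10.3, 2.77 and 10.4 counts, so SO- embryos 1 and 3 lay well under it and SO- embryo 2 did not. With the 3 SO- libraries summed, Nkx1-2 had 3 counts, or 0.318 CPM (exact 95% Poisson interval 0.0655 to 0.928, counting error only), against 135 counts in both SO+ libraries, or 2.47 CPM (2.07 to 2.93). When every gene with a count was fitted, 21777 in all, the log2 fold change of Nkx1-2 was -2.76 (adjusted p = 0.323 from edgeR), that of Cdx1 was -1.21 (0.862) and that of Tbx6 was -2.95 (0.708). None of these 3 passed the threshold, and such values depend on the small count that the fit adds to each library.

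Of the zinc finger factors, Sp5, like Mixl1, was higher in SO+ embryo 2 than in SO+ embryo 1 (ENSMUSG00000075304; chromosome 2, 70474923 to 70477729). It had 19.4 and 49.2 CPM in SO+ embryos 1 and 2 and 44.3, 41.2 and 27.7 CPM in SO- embryos 1, 2 and 3. All SO- values lay between the SO+ values, and means were 34.3 ± 21.1 CPM (SD, n = 2) and 37.7 ± 8.82 CPM (SD, n = 3). The log2 fold change was 0.12 (standard error 0.33, 95% interval -0.60 to 0.85, adjusted p = 0.936 from edgeR). Leaving out SO+ embryo 1 gave -0.41 (adjusted p = 0.720 from edgeR), and leaving out SO+ embryo 2 gave 0.95 (adjusted p = 0.0575 from edgeR).

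Sp8 had the largest fold change and the lowest level of the 6 tested members (ENSMUSG00000048562; chromosome 12, 118846329 to 118852576). It had 5.85 and 5.80 CPM in SO+ against 16.0, 13.4 and 5.25 CPM in SO- embryos 1, 2 and 3. SO- embryos 1 and 2 were above both SO+ embryos, and SO- embryo 3 was below both, as for T, with means of 5.83 ± 0.0295 CPM (SD, n = 2) and 11.5 ± 5.60 CPM (SD, n = 3). The log2 fold change was 0.96 (standard error 0.45, 95% interval -0.02 to 1.94, adjusted p = 0.380 from edgeR), and the SO- values rested on 66, 15 and 22 counts.

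**Figure D2:**
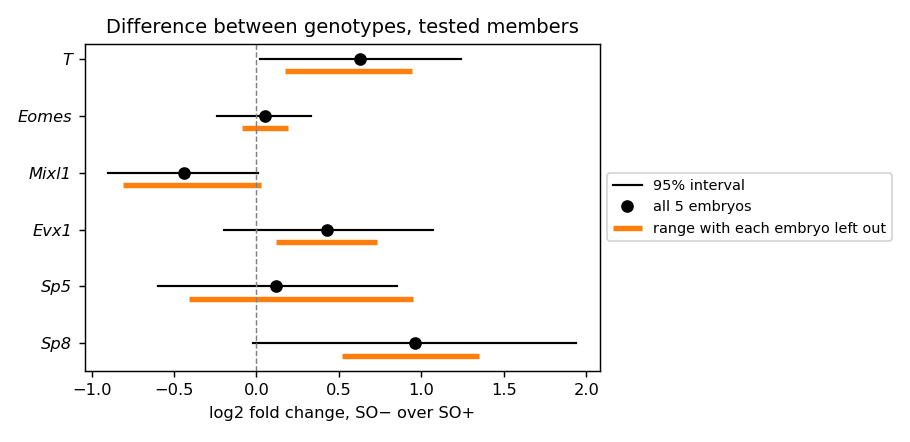
Log2 fold change, SO- over SO+, of the 6 tested members. Black points and lines are the value from all 5 embryos with its 95% interval, and orange bars span the values with each embryo left out in turn; the bars of Eomes, Mixl1 and Sp5 reach both sides of 0, and those of T, Evx1 and Sp8 stay above it.

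Levels were also set against each other per kilobase of exon, since longer genes collect more reads. In SO+ embryos the mean CPM per kb was 95.9 for Mixl1, 55.5 for Eomes, 16.3 for Sp5, 16.0 for T, 8.39 for Evx1, 1.28 for Sp8, 0.760 for Nkx1-2, 0.471 for Tbx6 and 0.399 for Cdx1. Of the higher neighbours, Mixl1 (69.3 and 123 CPM per kb) lay above Eomes (50.3 and 60.7), while T (16.7 and 15.3) lay inside the range of Sp5 (9.23 and 23.4). In SO- embryos the means were 70.6 for Mixl1, 57.7 for Eomes, 24.6 for T, 18.0 for Sp5, 12.1 for Evx1 and 2.53 for Sp8, so T stood before Sp5. There the ranges of Mixl1 (56.4 to 81.0 CPM per kb) and Eomes (51.6 to 66.8) overlapped, as did those of T (14.2 to 35.7), Sp5 (13.2 to 21.1) and Evx1 (6.98 to 18.0). No SO- value of Evx1 fell under the highest SO- value of Sp8, 3.50 CPM per kb.

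The 2 SO+ embryos, whose libraries were of nearly equal size, differed beyond counting error in some members. SO+ embryo 2 over SO+ embryo 1 was 2.54-fold for Sp5 (exact 95% interval 2.29 to 2.81), 1.77-fold for Mixl1 (1.71 to 1.84), 1.85-fold for Nkx1-2 (1.28 to 2.68) and 1.21-fold for Eomes (1.17 to 1.25). These intervals come from the exact binomial division of the counts, cover counting error only and compare 2 libraries. For Evx1 (1.02, 0.913 to 1.14), Sp8 (0.993, 0.792 to 1.24), T (0.918, 0.840 to 1.00) and Cdx1 (1.56, 0.780 to 3.22) the interval held 1. With Tbx6, 5 of the 9 members were above 1 by this interval and 0 were below it. The share of all tested genes with an interval off 1 was not computed, so nothing is read from that count. In libraries of this size even a small ratio can exclude 1, such as 0.969 for Ctnnb1 (0.949 to 0.988). A ratio at least as far from 1 as that of Sp5, in either direction, was found in 3.42% of the 12067 tested genes, as far as that of Mixl1 in 9.50%, as far as that of T in 70.1% and as far as that of Sp8 in 97.1%. SO+ embryo 2 was at least 1.5-fold higher for 5 of the 9 members (Sp5, Mixl1, Nkx1-2, Cdx1 and Tbx6), of which 2 were among the 6 tested members, and for 7.28% of all tested genes. Pou5f1 was lower in SO+ embryo 2 (435 against 920 CPM), and VE markers summed to 3477 against 3121 CPM. The part of either, and of embryo stage, was not tested.

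Other transcription factors of the streak, node and nascent mesoderm also differed between the SO+ embryos. Of 19 such genes, on a list chosen with earlier results of these data known, 13 were tested. Of these 13, 10 were at least 1.5-fold higher in SO+ embryo 2 and 0 were 1.5-fold lower, beside 7.28% and 9.46% of all tested genes. The 10 include Cdx2 and Hand1, which were also on the list of ExE markers. Each sample held VE as well as epiblast, and the tissue that made these RNAs was not tested. Mesp1, which marks the first mesoderm, had 20.9 and 63.3 CPM in SO+ embryos 1 and 2, a ratio of 3.03 (2.76 to 3.34). Lhx1, of the anterior streak and mesendoderm, had 41.9 and 114 CPM, a ratio of 2.72 (2.55 to 2.92). Foxa2, of the anterior streak and endoderm, had 36.1 and 76.8 CPM, Gsc, of the organizer, had 16.3 and 35.8 CPM, and Noto, of the node, had 0.472 and 2.40 CPM. Snai1, a repressor of E-cadherin in EMT, had 24.7 and 25.1 CPM, and Nanog had 56.2 and 51.5 CPM, nearly level between the 2 embryos, as T and Evx1 were. Of 9 tested streak-inducing signals and processing enzymes, 0 were 1.5-fold higher or lower in SO+ embryo 2, beside 7.28% and 9.46% of all genes. With 9 genes, nothing is read from this count. Nodal had 61.5 and 47.9 CPM and Wnt3 had 20.8 and 19.0 CPM. The secreted Nodal antagonist Lefty2, made in nascent mesoderm, had 25.6 and 92.1 CPM.

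**Figure D3:**
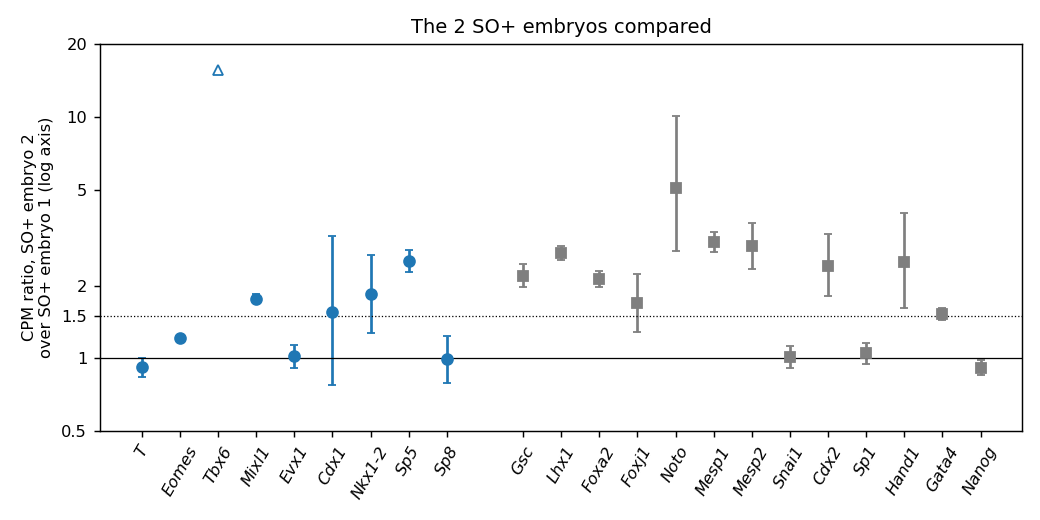
Ratio of CPM in SO+ embryo 2 to SO+ embryo 1, on a log axis, for the 9 members (blue circles) and 13 tested genes of the list of other streak, node and nascent mesoderm transcription factors (grey squares); bars are exact 95% intervals for counting error, the open triangle is a lower bound for Tbx6, and the dotted line is at 1.5. T, Evx1, Sp8, Snai1, Sp1 and Nanog lie near 1, while Sp5, Mixl1, Nkx1-2, Cdx1 (whose interval reaches under 1), the bound for Tbx6 and 10 of the grey squares lie above 1.5.

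These 10 genes were chosen for a low value in SO+ embryo 1, which by itself puts other embryos above it. Every SO- embryo lay above SO+ embryo 1 in 8 of the 10, beside 64.8% of the 879 tested genes chosen in the same way, and nothing is read from that count. SO- embryos 1, 2 and 3 lay above SO+ embryo 2 in 6, 8 and 3 of the 10, beside 44.4%, 50.3% and 37.9% of the 879. Every SO- embryo lay below SO+ embryo 2 in 1 of the 10, Mesp1, beside 30.5% of the 879, and nothing is read from that count. Mesp1 had 27.8, 27.7 and 27.0 CPM in the SO- embryos, close to SO+ embryo 1. Lhx1 had 105, 127 and 95.2 CPM and Foxa2 had 73.3, 104 and 84.2 CPM, near or above SO+ embryo 2. None of these 3 passed the threshold between genotypes (adjusted p = 0.501, 0.580 and 0.322 from edgeR). Mesp1 passed when SO+ embryo 1 was left out (-1.21), and Lhx1, Foxa2, Gsc and Gata4 passed when SO+ embryo 2 was left out (1.36, 1.25, 1.26 and 0.72). The direction of these shifts is fixed by the choice of genes with a gap between the SO+ embryos, so they are no evidence of a difference between genotypes.

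Among the SO- embryos the spread was widest in Sp8, Evx1 and T. The highest over the lowest SO- embryo was 3.04-fold for Sp8 (exact 95% interval 1.85 to 5.18, counting error only), 2.59-fold for Evx1 (1.82 to 3.66), 2.51-fold for T (2.06 to 3.08), 1.60-fold for Sp5 (1.26 to 2.04), 1.44-fold for Mixl1 (1.29 to 1.61) and 1.29-fold for Eomes (1.13 to 1.47). Because the extremes of 3 embryos were chosen, these intervals are a description. At least 2-fold was reached by 3 of the 6 members and by 21.0% of all tested genes. T, Mixl1, Sp5 and Sp8 were highest in SO- embryo 1 and lowest in SO- embryo 3, whose libraries were of nearly the same size. Evx1 and Eomes were highest in SO- embryo 2 and lowest in SO- embryo 1. SO- embryo 1 was at least 1.5-fold above SO- embryo 3 for 3 of the 6 members, T, Sp5 and Sp8, and for 11.0% of all tested genes. Of the 6 tested members, Sp5 and Mixl1 were at least 1.5-fold apart between the SO+ embryos. They were not those that varied most among the SO- embryos (Sp8, Evx1 and T). This is a statement of rank for which no test was made.

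Gene profiles nearest to those of T, Eomes and Mixl1 were found by the root mean square (RMS) difference of log2(CPM + 1), centred on each gene's mean over the 5 embryos, among 9415 other genes with a mean of at least 3 on that scale. For T these were Rftn1 (RMS difference 0.0836), Tor4a (0.118), Ephb1 (0.134), Plekhh1 (0.135) and Kctd9 (0.158). Rftn1 had 11.4 and 12.3 CPM in SO+ against 25.9, 18.8 and 10 CPM in the SO- embryos. Sp8 was the nearest member to T, at rank 21 of 9415 (0.197), while Sp5 (0.513) and Eomes (0.517) stood at ranks 4468 and 4618. For Mixl1 the nearest were Zfp952 (0.0720), Dmd (0.119), Tm4sf5 (0.125), Pdzk1 (0.130) and Mob1b (0.138). For Eomes, whose profile was nearly flat, they included Prc1 (0.0198), Cstf3 (0.0225), Ei24 (0.0260) and Pop1 (0.0294). The ranks rest on 5 embryos that share 2 genotypes and are a description.

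The wider pathway was described through 4 lists of 55 genes, of which 37 were tested and 3 passed the threshold (8.11%, against 2.35% of all tested genes). These lists were chosen with earlier results of these data known, so nothing is read from that share. Among 10 streak-inducing signals and their processing enzymes, 9 were tested, 1 rose and 1 fell, with a median log2 fold change of -0.19. Fgf8, needed for cells to leave the streak, had 138 and 123 CPM in SO+ against 306, 333 and 295 CPM in SO- embryos, without overlap. It rose by 1.26 ± 0.11 (standard error) on the log2 scale (adjusted p = 1.25e-04 from edgeR) and kept its call with each of the 5 embryos left out (adjusted p at most 0.0150 from edgeR). Wnt8a, a WNT ligand of the posterior epiblast, had 12.4 and 8.80 CPM in SO+ against 1.93, 2.68 and 1.19 CPM in SO- embryos, and its fall of 2.59 on the log2 scale (adjusted p = 0.0118 from edgeR) stayed under the threshold only when SO+ embryo 2 was left out (adjusted p up to 0.117 from edgeR with the others). Nodal had a log2 fold change of -0.19, Wnt3 of 0.20 and Bmp4 of 1.27 (adjusted p = 0.700, 0.866 and 0.242 from edgeR). Levels of Wnt3, the main WNT ligand of streak formation, were 20.8 and 19.0 CPM in SO+ against 18.1, 38.5 and 17.7 CPM in SO- embryos, highest in SO- embryo 2, as for Evx1.

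Of 13 signal transducers and WNT feedback genes, 13 were tested and 0 passed in edgeR's test, with 1 (Dkk1) at an unadjusted p under 0.05 and a median log2 fold change of -0.04. DESeq2 called Dkk1, and limma-voom called none of the 13. Axin2, a direct target of WNT signalling, had 24.8 and 35.5 CPM in SO+ against 29.7, 29.5 and 20.3 CPM in SO- embryos, highest in SO+ embryo 2 and lowest in SO- embryo 3. Its values in SO- embryos 1 and 2 were close and lay between those of the SO+ embryos, as did those of Sp5. Of the 13 tested factors of the streak, node and nascent mesoderm, 1 rose and 0 fell, with 9 above 0 and a median of 0.38. The gene that rose was Hand1, from 1.09 and 2.74 CPM in SO+ to 13.5, 24.2 and 11.9 CPM in SO- embryos (log2 fold change 3.04, adjusted p = 0.00754 from edgeR). Hand1 is made in extra-embryonic mesoderm and in trophoblast, was also on the list of ExE markers, and lost its call when SO- embryo 1 or SO- embryo 2 was left out (adjusted p up to 0.128 from edgeR). Of 13 other T-box genes, 2 were tested, Tbx3 (0.58) and Mga (-0.29), and neither passed (adjusted p = 0.360 and 0.576 from edgeR).

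**Figure D4:**
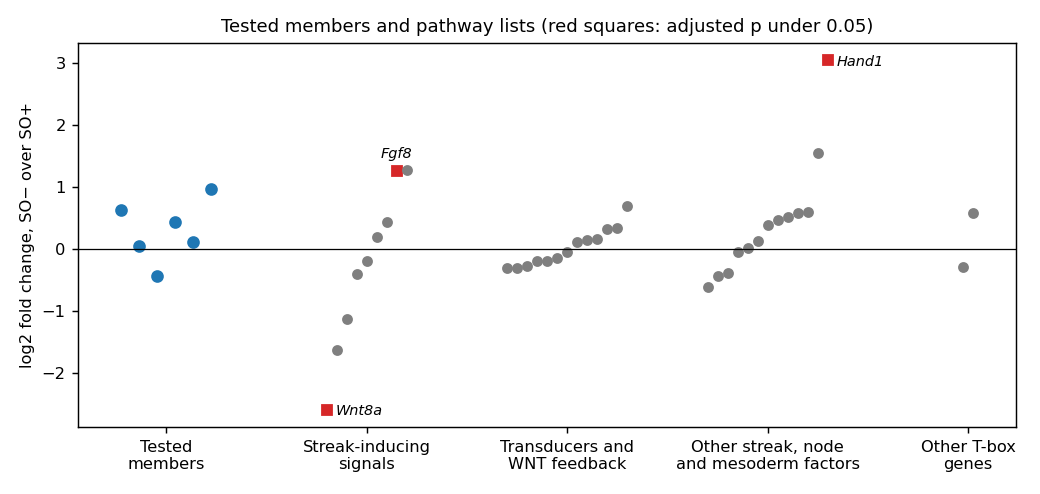
Log2 fold change, SO- over SO+, of the 6 tested members (blue) and of 37 tested genes on 4 lists of the streak pathway, 1 point per gene; red squares are the 3 genes with an adjusted p under 0.05. The members lie between -0.44 and 0.96, while Wnt8a is at -2.59, Fgf8 at 1.26 and Hand1 at 3.04.

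Of 8 tested markers of the epiblast, the tissue in which the streak forms, 3 fell and 0 rose. Of all tested genes, 0.928% fell and 1.42% rose. The 8 markers summed to 5646 and 4889 CPM in SO+ against 2885, 2555 and 3678 CPM in SO- embryos. Whether this sum follows the amount of epiblast was not tested. Most of the sum was Dnmt3b, a DNA methyltransferase, with 3983 and 3263 CPM in SO+ against 1708, 1447 and 2286 CPM in SO- embryos. Those that fell were Utf1 (511 and 393 CPM in SO+, 92.9, 65.3 and 149 CPM in SO-), L1td1 and Dnmt3b, with log2 fold changes of -2.08, -1.84 and -0.99 (adjusted p = 4.06e-04, 1.25e-04 and 0.00392 from edgeR). Utf1 and L1td1 kept their calls with each embryo left out, and Dnmt3b lost its call when SO- embryo 1 or SO- embryo 2 was left out (adjusted p up to 0.122 from edgeR). Of the 5 markers that did not pass, Fgf5 (0.38), Sox2 (0.56) and Epcam (0.04) had log2 fold changes above 0, and Pou3f1 (-0.84) and Otx2 (-0.23) below it. Fgf5 had 251 and 377 CPM in SO+ against 420, 370 and 424 CPM in SO- embryos. Epcam, an epithelial adhesion gene, had 426 and 426 CPM in SO+ against 419, 404 and 479 CPM in SO- embryos. Of 8 markers of maternal blood and decidua, 6 had 0 counts in every embryo, and their sum was 8.10 and 7.10 CPM in SO+ against 11.1, 8.05 and 10 CPM in SO- embryos, nearly all of it Des.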

How the data were processed

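RNA from the epiblast and VE of 2 SO+ and 3 SO- embryos was prepared by SmartSeq2, which attaches no molecular identifiers, so PCR copies are counted as reads. Per the study's methods the authors trimmed adapters, used STAR for alignment to GRCm38 and HTSeq for counting on Ensembl 87 genes, and deposited the raw counts, with no scaling. Groups and replicate numbers were taken from sample titles, and each embryo is 1 sample.

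Counts were compared in R 4.3.3 with edgeR 4.0.16 (filterByExpr, TMM scaling, quasi-likelihood test, with no term but genotype) over all genes, with Benjamini-Hochberg adjustment. CPM were divided by the library total alone. Standard errors were derived from the F statistic of each fold change. Alternatives were TMM-scaled CPM (for the overlap of genotypes, chosen after seeing the data), DESeq2 1.42.0, limma-voom (limma 3.58.1), other scalings and filters, robust spread, a replicate block and each embryo left out. The edgeR, DESeq2 and limma steps were tested on simulated counts with known changes. Coordinates and exon lengths came from GENCODE M21 on the same build, which held 99.9% of tested genes. The members, lists and tests were chosen with earlier results of these data known. Genes named are the members, list genes with an adjusted p under 0.05, the signals Nodal, Wnt3, Fgf8 and Bmp4, Pou5f1, and the 5 nearest profiles of T, Eomes and Mixl1, of which 1 is not reported here. Other genes were named after their values were seen, because a statement on a list rests on them. No column of values was left without a sample.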

Additional observations from a re-analysis of the deposited data

How the results depend on the processing

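Across 14 alternatives for each of the 6 tested members, 76 of 84 log2 fold changes kept their direction and their side of the threshold. With each embryo left out, called members numbered from 0 to 1, called genes from 35 (without SO- embryo 2) to 573 (without SO+ embryo 2) beside 283, and called pathway genes from 1 to 10 beside 3. Over these fits the values of T ran from 0.17 to 0.94, Eomes from -0.093 to 0.19, Mixl1 from -0.81 to 0.027, Evx1 from 0.12 to 0.73, Sp5 from -0.41 to 0.95 and Sp8 from 0.52 to 1.35. The call gained was Mixl1, without SO+ embryo 1. Signs turned for Eomes without SO+ embryo 1 (-0.093) and without SO- embryo 2 (-0.055), for Mixl1 without SO+ embryo 2 (0.027), and for Sp5 without SO+ embryo 1 (-0.41) and without SO- embryo 1 (-0.064); the cause was not tested. Limma-voom called 91 genes, all among the 283. DESeq2 and robust estimation each called 5 pathway genes, adding Tdgf1 and Dkk1. On TMM-scaled values the count of members with an SO+ difference did not change, nor did that of members without overlap, for which this alternative was chosen after seeing the data. SO+ and SO- embryos share numbers only by name, as different animals, and the deviations of same-numbered embryos correlated at 0.0154 and 0.112 over 12067 genes. With the replicate block, 929 genes, 13 pathway genes and 2 members were called. These members were T at 0.90 (adjusted p = 6.91e-04 from edgeR) and Sp8 at 1.35 (adjusted p = 0.0476 from edgeR). Replicate number 3 exists only in SO-, so its block term absorbs SO- embryo 3, which then adds nothing to the comparison of genotypes. SO- embryo 3 was the lowest SO- embryo for T and Sp8. With that embryo left out and no block, their values were 0.94 and 1.35. Neither passed in that fit (adjusted p = 0.0517 and 0.111 from edgeR), so the 2 calls also rest on the pairing by number. Depth limits Tbx6, Cdx1 and Nkx1-2 above all, since a level of 1 CPM is near 1 count in SO- embryo 2.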

Other observations

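Counts in 1 SO+ library and none in the other, as for Tbx6, were also seen in other T-box genes that were too low to be tested. Tbx22 had 18 counts in SO+ embryo 1 and 0 in SO+ embryo 2, with 0 in all 3 SO- libraries. Tbr1 had 0 and 13 counts in SO+ embryos 1 and 2 and 0, 0 and 1 in SO- embryos 1, 2 and 3, and Tbx15 had 0 and 11 counts in the SO+ embryos and 2, 1 and 0 in the SO- embryos. Msgn1, a factor of presomitic mesoderm that acts beside Tbx6, had 4 and 0 counts in SO+ embryos 1 and 2 and 0 in the SO- embryos, so the embryo with Tbx6 counts had none of Msgn1. Hoxb1, an early posterior Hox gene, had 24 and 49 counts in the SO+ embryos and 12, 0 and 3 in the SO- embryos, which is 0.872 and 1.81 CPM against 2.90, 0 and 0.716 CPM. Cdx4 and Evx2 had 0 counts in all 5 embryos. These genes were chosen after their values were seen, and the values carry no test.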
